A study of Mus musculus with 10 samples.

Results

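The 10 genes described here encode the core machinery of mitochondrial fusion and fission: Mfn1, Mfn2 and Opa1 for fusion, Dnm1l, Mff, Fis1, Mief1 and Mief2 for fission, and Oma1 and Yme1l1, the proteases that cut OPA1. They were taken by a list of gene symbols, not by a cut on measured values, but the list was made with earlier results of these data known. All 10 were found among the 20156 gene rows and passed the filter on low counts that left 16180 genes for testing. RNA came from the hippocampus of mice aged 6 months: 5 wild type (WT) animals and 5 that the labels call TfamAKO. Each mouse gave 1 library, made by a stranded mRNA kit. Tfam encodes a mitochondrial transcription factor that also compacts mitochondrial DNA. The series title concerns mitochondria of astrocytes, and the labels give no Cre driver, no deleted exon, and no sex, litter or batch. The values therefore describe bulk tissue in which any altered cells are mixed with all others.

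Mitochondria in neurons and glia form a network that is continuously joined and divided. The dynamin-like GTPases MFN1 and MFN2 join the outer membranes, and OPA1 joins the inner membranes and shapes the cristae. DRP1, the product of Dnm1l, is a cytosolic GTPase that assembles on the outer membrane and constricts it, after recruitment by the adaptors MFF, MiD49 (Mief2), MiD51 (Mief1) and, by some accounts, FIS1. YME1L1 cuts OPA1 constitutively, whereas OMA1 is activated when the inner membrane loses its potential and then converts long OPA1, the form needed for fusion, to short OPA1. Most of this control acts on protein cleavage, phosphorylation and recruitment, which RNA levels do not measure.

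To show what lies upstream of the genes the results turn on, the bases before the RefSeq start are printed. They are those of the 4 members that passed the test and of Opa1, whose groups did not overlap in the scaled counts. Bases are in lower case, read 5′ to 3′ on the gene's strand (RefSeq, GRCm38.p6), and capitals mark matches to the motifs named in the next paragraph. The windows hold the 250 bases before the start, shortened where an annotated exon of the same gene begins earlier.
Mfn1, chr3:32529232-32529464, plus strand: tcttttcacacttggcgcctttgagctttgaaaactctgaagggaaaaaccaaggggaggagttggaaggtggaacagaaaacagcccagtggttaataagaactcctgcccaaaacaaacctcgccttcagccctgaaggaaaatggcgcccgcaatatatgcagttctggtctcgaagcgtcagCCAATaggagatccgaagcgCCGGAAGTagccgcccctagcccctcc
Oma1, chr4:103313596-103313811, plus strand: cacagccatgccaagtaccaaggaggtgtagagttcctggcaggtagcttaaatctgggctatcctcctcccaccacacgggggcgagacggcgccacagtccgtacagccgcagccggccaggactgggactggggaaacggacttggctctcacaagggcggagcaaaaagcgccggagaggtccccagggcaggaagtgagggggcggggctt
Mief2, chr11:60728148-60728397, plus strand: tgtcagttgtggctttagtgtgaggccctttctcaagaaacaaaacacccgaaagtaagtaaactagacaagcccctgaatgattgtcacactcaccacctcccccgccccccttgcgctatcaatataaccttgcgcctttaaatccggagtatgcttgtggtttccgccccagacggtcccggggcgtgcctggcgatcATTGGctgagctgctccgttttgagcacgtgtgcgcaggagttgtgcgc
Dnm1l, upstream start, chr16:16359032-16359281, minus strand: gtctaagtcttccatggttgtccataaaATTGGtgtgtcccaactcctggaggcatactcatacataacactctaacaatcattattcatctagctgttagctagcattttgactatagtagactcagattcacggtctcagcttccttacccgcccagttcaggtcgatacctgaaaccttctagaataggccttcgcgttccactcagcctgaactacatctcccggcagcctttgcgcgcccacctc
Opa1, chr16:29579084-29579333, plus strand: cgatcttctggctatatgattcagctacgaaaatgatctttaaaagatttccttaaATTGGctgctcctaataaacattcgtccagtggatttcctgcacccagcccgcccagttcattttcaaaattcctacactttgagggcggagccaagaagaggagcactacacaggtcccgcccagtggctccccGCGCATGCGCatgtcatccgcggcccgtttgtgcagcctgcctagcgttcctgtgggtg

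Motifs were searched on both strands of the 250 bases before the start, in 15 windows of the 10 members and in all 32851 RefSeq windows of 27025 genes. The ATF4 composite core TGATGNAA was in 0 windows of the members and in 3.45% of all windows. The ERR motif TCAAGGTCA was likewise in 0 windows of the members and in 0.387% of all. The NRF1 half-site GCGCNTGC, in 7.86% of all windows, was in 2 of the 15, those of Opa1 and Oma1. In Opa1, 2 overlapping matches on opposite strands lay between 59 and 50 bases before the start, and in Oma1 the match lay 23 to 16 bases before it, inside an annotated first exon and so outside the stretch printed. The GABP motif CCGGAAGT, in 2.88% of all windows, was in 3 of the 15, belonging to Mfn1, Mief1 and Fis1. The letters CCAAT, in 33.9% of all windows, were in 7 of the 15, each of a different member. A match is a description of letters and does not show that a factor binds.

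Of the 10 genes, 3 were higher in TfamAKO hippocampus (Oma1, Mief2 and Mfn1) and 1 was lower (Dnm1l) at an adjusted p under 0.05 in edgeR's quasi-likelihood test, adjusted over all 16180 genes by the Benjamini-Hochberg method. The other 6 did not pass. The genotypes differed widely at this threshold: 37.4% of all genes tested passed, 20.8% as higher and 16.6% as lower, so 4 of 10 members is close to the share of all genes. The members' changes were small beside that background. Their median absolute log2 fold change (TfamAKO minus WT) was 0.12 against 0.25 over all genes, and the largest, 0.42 for Oma1, was exceeded by 31.8% of all genes. In 3 members, Opa1, Dnm1l and Oma1, no library of either group fell inside the range of the other in scaled counts, as in 23.9% of all genes.

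**Figure D1:**
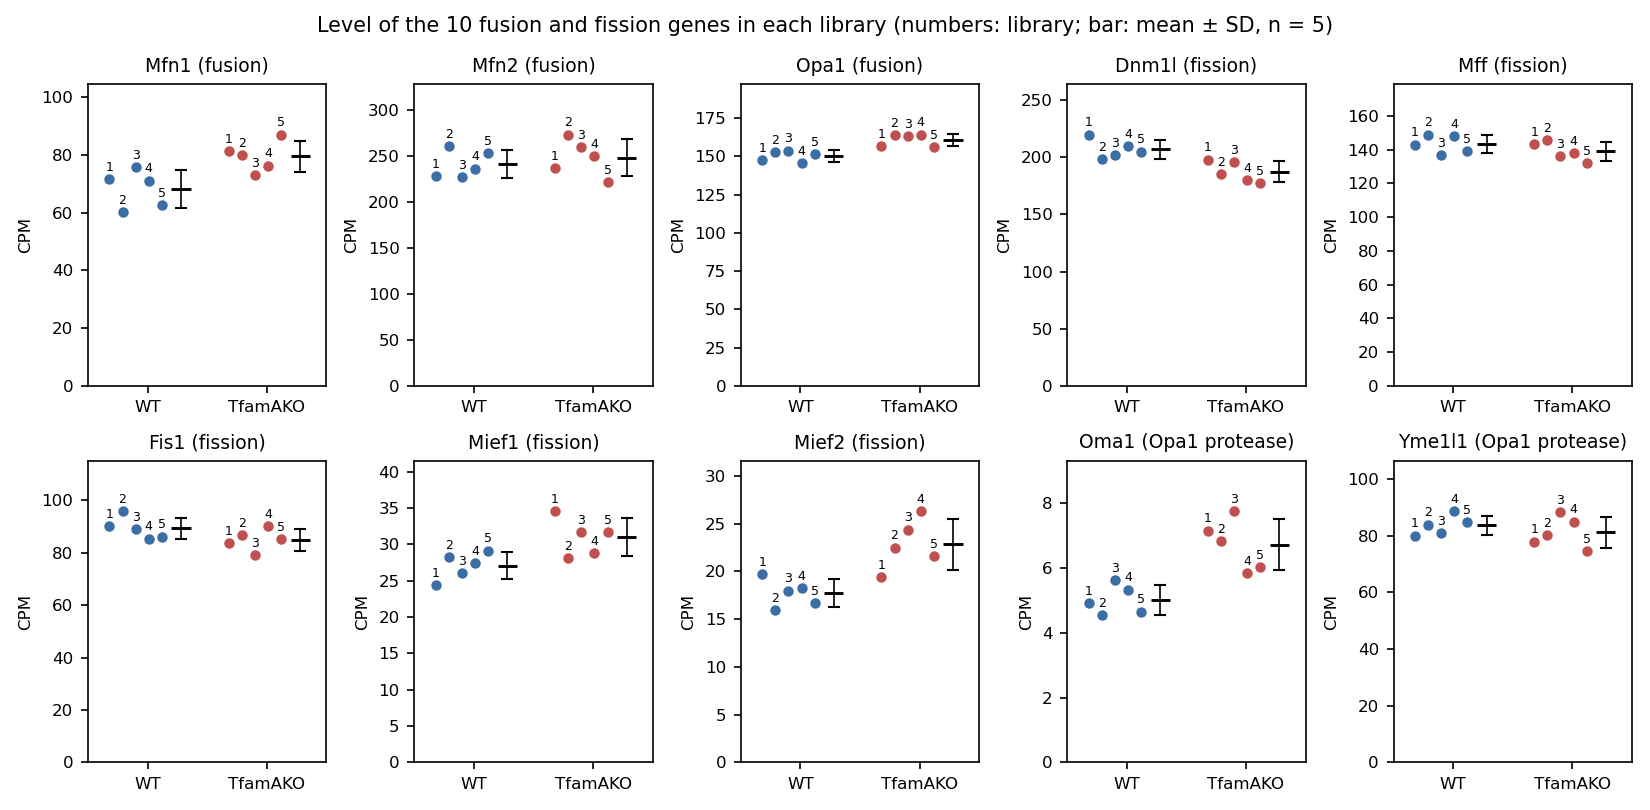
Level of each of the 10 genes in CPM (counts scaled to the effective library size, vertical axes from 0) in the 5 WT (blue) and 5 TfamAKO (red) libraries, 1 point per mouse, with the mean ± SD beside the points. The groups stand apart for Opa1, Dnm1l and Oma1, and those of the other 7 genes overlap.

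Some facts of the libraries bear on every value. Libraries held 16584245 to 26032470 counts in WT, and 19558377 to 28675367 counts in TfamAKO. Tfam measured 31.7, 33.0, 20.6, 32.5 and 30.4 CPM in WT libraries 1 to 5, against 23.6, 22.7, 19.6, 23.1 and 23.4 CPM in TfamAKO libraries 1 to 5, a log2 fold change of -0.40 ± 0.12 (SE, adjusted p = 0.0204). That call was lost without WT 2 (0.0580), WT 4 (0.0504) or TfamAKO 3 (0.0554), without TfamAKO 4 and 5 (0.0524), and on the deposited normalized values (-0.28, adjusted p = 0.117). The library labelled WT 3 thus lay inside the TfamAKO range for Tfam, while on the first principal component it was at -42.0, among the WT libraries (-46.2 to -34.8). TfamAKO 1 was at 12.2 on that component and the other TfamAKO libraries at 37.1 to 52.7. TfamAKO 4 and 5 carried the Y-linked Kdm5d at 22.7 and 22.4 CPM, which was under 1 CPM elsewhere. The X-linked Xist ran the other way, at 0.14 and 0 CPM in TfamAKO 4 and 5 and 201 to 467 CPM elsewhere. By these transcripts sex was not balanced between the genotypes, and it was not a term of the fit. WT 3, 4 and 5 carried Ttr, a choroid plexus transcript, at 5146, 3801 and 2511 CPM against 14.3 to 122 CPM in the other 7. In bulk RNA, fewer cells of a type and less RNA per cell cannot be told apart. Of 8 neuronal markers 4 fell and 0 rose (summed level 6430 to 6770 CPM in WT, 4867 to 5961 CPM in TfamAKO), and of 8 microglial markers 7 rose and 0 fell (333 to 390 CPM against 605 to 739 CPM). Of 8 astrocyte markers 4 rose and 2 fell (4217 to 5188 CPM against 4534 to 7056 CPM). Gfap changed most, from a mean of 447 to 2093 CPM, while Slc1a2 (2122 to 1340 CPM) and Aldoc (999 to 570 CPM) fell. The higher astrocyte sum thus leans on Gfap. Of 6 endothelial markers 5 rose and 0 fell (190.3 to 247 CPM against 289 to 463 CPM). All 8 choroid plexus markers passed as lower (44.6 to 5649 CPM against 38.5 to 133 CPM). Each was highest in WT 3, 4 and 5. In WT 1 and 2, Kcne2 (0.184 and 0.419 CPM) lay within the TfamAKO range, whereas Kl (23.7 and 25.4 CPM) lay above its own. Of 8 oligodendrocyte markers 2 rose and of 4 oligodendrocyte precursor markers 1 rose, with 0 lower in either list. No marker was at 0 in all libraries, and the part of these cell mixtures in the changes described here was not tested.

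Of the outer membrane fusion genes, Mfn1 rose and Mfn2 did not pass the test. Mfn1 measured 71.6, 60.2, 75.8, 71.1 and 62.6 CPM in WT libraries 1 to 5, against 81.3, 79.9, 73.0, 76.3 and 87.0 CPM in TfamAKO libraries 1 to 5. TfamAKO 3 lay below WT 3, so the groups overlapped, and the other 4 TfamAKO libraries lay above every WT library. The mean rose from 68.3 ± 6.57 to 79.5 ± 5.30 CPM (SD, n = 5 each), a log2 fold change of 0.22 ± 0.07 (95% interval 0.06 to 0.38, edgeR adjusted p = 0.0350). This call was lost without WT 2 (adjusted p = 0.0675), WT 5 (0.109), TfamAKO 2 (0.0667) or TfamAKO 5 (0.0647), without TfamAKO 4 and 5 together (0.101) and without WT 3, 4 and 5 (0.0855), and with upper-quartile scaling (0.0614). Mfn2, which also tethers mitochondria to the endoplasmic reticulum, measured 228, 261, 227, 237 and 254 CPM in WT libraries, against 237, 273, 259.6, 250.3 and 222 CPM in TfamAKO libraries. Its groups overlapped, and its log2 fold change was 0.04 ± 0.07 (95% interval -0.11 to 0.19, adjusted p = 0.661).

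The count of Mfn1 is the one most affected by the difference between the deposited tables. The authors deposited normalized values beside the counts, and the ratio of the former to the latter, divided by the library's median ratio, is a factor specific to the gene and the library. For Mfn1 this factor was 1.29 in WT 1 and 1.27 in WT 2, between 0.895 and 1.05 in WT 3 to 5, 0.796 in TfamAKO 1 and between 0.931 and 1.01 in TfamAKO 2 to 5. Its highest value was 1.62 times its lowest, a spread at the 89.7th percentile of all genes. On the normalized values Mfn1 was at 1668 ± 265 in WT and 1664 ± 176 in TfamAKO (SD, n = 5 each). Fitted by limma, these values gave a log2 fold change of 0.00 (adjusted p = 0.979). With the factor as an offset in the count model the log2 fold change was -0.0014 (adjusted p = 0.994). Mfn1 has 5 annotated coding transcripts of 616 to 4562 bases, and the sources used here do not give the steps behind the normalized values. The rise of Mfn1 therefore holds for the counts only.

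**Figure D2:**
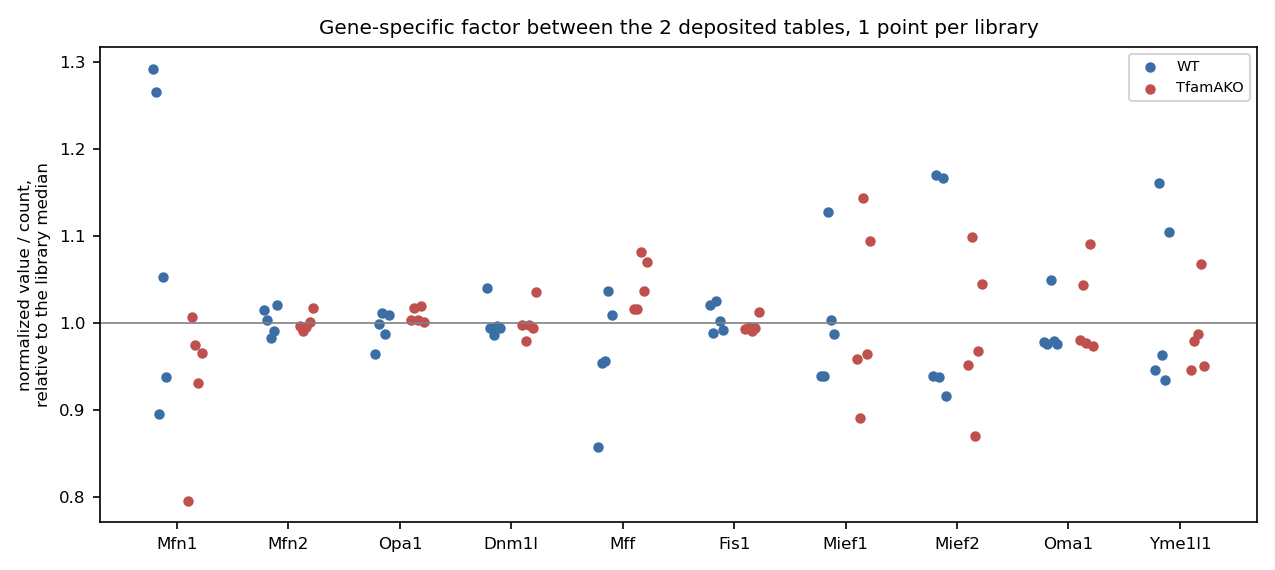
Deposited normalized value divided by the deposited count, relative to the median of that ratio in the library (vertical axis, no unit), for each of the 10 genes in 5 WT (blue) and 5 TfamAKO (red) libraries, 1 point per library. For Mfn1 the points run from 0.796 to 1.29, whereas for Mfn2, Opa1, Dnm1l and Fis1 they stay close to 1.

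Opa1 measured 147, 153, 154, 145 and 152 CPM in WT libraries 1 to 5, against 157, 164, 163, 164 and 156 CPM in TfamAKO libraries 1 to 5. Every TfamAKO library lay above every WT library in CPM. On the deposited normalized values the groups overlapped, with TfamAKO 5 (3505) below WT 3 (3531). The difference in CPM was small, from 150.2 ± 3.63 to 161 ± 4.08 CPM (SD, n = 5 each), with a log2 fold change of 0.10 ± 0.04 (95% interval 0.00 to 0.19). It had an unadjusted p of 0.0468 and did not pass after adjustment (edgeR adjusted p = 0.101), nor did it pass under any of the 23 alternatives (adjusted p from 0.0527 to 0.269). 

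Of the proteases that cut OPA1, Oma1 rose and Yme1l1 did not pass the test. Oma1 measured 4.92, 4.53, 5.61, 5.32 and 4.64 CPM in WT libraries 1 to 5, against 7.14, 6.83, 7.74, 5.84 and 6.02 CPM in TfamAKO libraries 1 to 5. In CPM each TfamAKO library lay above each WT library, with TfamAKO 4 nearest to WT 3. On the deposited normalized values the groups overlapped, with TfamAKO 5 (131.7) below WT 3 (133.8). Its mean rose 1.34-fold, from 5.01 ± 0.457 to 6.72 ± 0.788 CPM (SD, n = 5 each), a log2 fold change of 0.42 ± 0.13 (95% interval 0.15 to 0.69, adjusted p = 0.0197). Oma1 had the lowest counts of the 10 genes, 80 to 171 per library. Its call was lost without WT 5 (adjusted p = 0.0560), without TfamAKO 3 (0.0556) and without WT 3, 4 and 5 (log2 fold change 0.53, adjusted p = 0.0787), and it passed in the other 20 of 23 alternatives, the deposited normalized values included. Yme1l1 measured 80.0, 83.8, 80.9, 88.6 and 84.8 CPM in WT libraries, against 77.8, 80.0, 88.3, 84.9 and 74.4 CPM in TfamAKO libraries. Its groups overlapped, and the log2 fold change was -0.04 ± 0.06 (95% interval -0.17 to 0.08, adjusted p = 0.574).

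Dnm1l was the only member that fell. It measured 219.6, 198.5, 202, 209.7 and 205 CPM in WT libraries 1 to 5, against 197.8, 185, 196, 180.0 and 177 CPM in TfamAKO libraries 1 to 5. The lowest WT library, WT 2, was just above the highest TfamAKO library, TfamAKO 1. The mean fell from 207 ± 8.20 to 187 ± 9.22 CPM (SD, n = 5 each), a log2 fold change of -0.14 ± 0.05 (95% interval -0.26 to -0.03, edgeR adjusted p = 0.0466). The value stood at the threshold: leaving out any 1 library other than TfamAKO 1 ended the call, with adjusted p from 0.0538 (without WT 2) to 0.102 (without TfamAKO 4), at log2 fold changes between -0.16 and -0.12. It was also lost without TfamAKO 4 and 5 together (-0.10, adjusted p = 0.192), without WT 3, 4 and 5 (-0.13, adjusted p = 0.279) and without a filter on low counts (0.0543), and with the authors' normalization ratio as an offset (0.0535). On the deposited normalized values Dnm1l stayed just under the threshold (-0.16, limma adjusted p from 0.0478 to 0.0482 over the 3 pseudocounts). Exons of Dnm1l share bases with Gm49521 on the opposite strand, and the library kit keeps strand, although the sources used here do not give the strand setting of the authors' counting.

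Among the adaptor genes, Mief2 rose, and Mief1, Mff and Fis1 did not pass the test. Mief2, which encodes MiD49, measured 19.7, 15.9, 18.0, 18.2 and 16.7 CPM in WT libraries 1 to 5, against 19.4, 22.5, 24.4, 26.3 and 21.6 CPM in TfamAKO libraries 1 to 5. Apart from TfamAKO 1, which lay just below WT 1, the TfamAKO libraries were above all WT libraries. Mief2 rose 1.29-fold, from 17.7 ± 1.47 to 22.8 ± 2.64 CPM (SD, n = 5 each), a log2 fold change of 0.37 ± 0.10 (95% interval 0.16 to 0.57, adjusted p = 0.0102). It had the smallest p of the 10 genes and kept its call when any 1 library was left out (adjusted p from 0.00289 to 0.0328). It did not pass on the deposited normalized values (log2 fold change 0.30, adjusted p = 0.0639), with their ratio as an offset (0.30, 0.0629) or without WT 3, 4 and 5 (0.39, adjusted p = 0.101).

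Mief1, which encodes the related MiD51, measured 24.4, 28.3, 26.0, 27.4 and 29.1 CPM in WT libraries, against 34.6, 28.1, 31.7, 28.8 and 31.7 CPM in TfamAKO libraries. Its log2 fold change was 0.19 ± 0.08 (95% interval 0.03 to 0.36), with an unadjusted p of 0.0267 and an adjusted p of 0.0655. TfamAKO 2 and 4 lay within the WT range, and Mief1 passed under none of the 23 alternatives (adjusted p from 0.0530 to 0.214). An exon of AC140267.1 shares bases with Mief1 on the same strand, so their reads may not be separable.

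Mff, the main outer membrane receptor of DRP1, measured 143, 149, 137, 148 and 139 CPM in WT libraries, against 143, 145, 136, 138 and 132 CPM in TfamAKO libraries, with a log2 fold change of -0.04 ± 0.05 (95% interval -0.15 to 0.07, adjusted p = 0.525). Fis1 measured 90.1, 95.8, 89.0, 85.3 and 86.1 CPM in WT libraries, against 83.6, 86.8, 78.9, 90.0 and 85.0 CPM in TfamAKO libraries, with a log2 fold change of -0.07 ± 0.05 (95% interval -0.19 to 0.04, adjusted p = 0.311). The groups overlapped for both, and the intervals leave room for a change of about the size seen for Dnm1l. Mff also has a partner on the opposite strand, C430014B12Rik, and its small difference changed sign on the normalized values (0.07, adjusted p = 0.460).

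**Figure D3:**
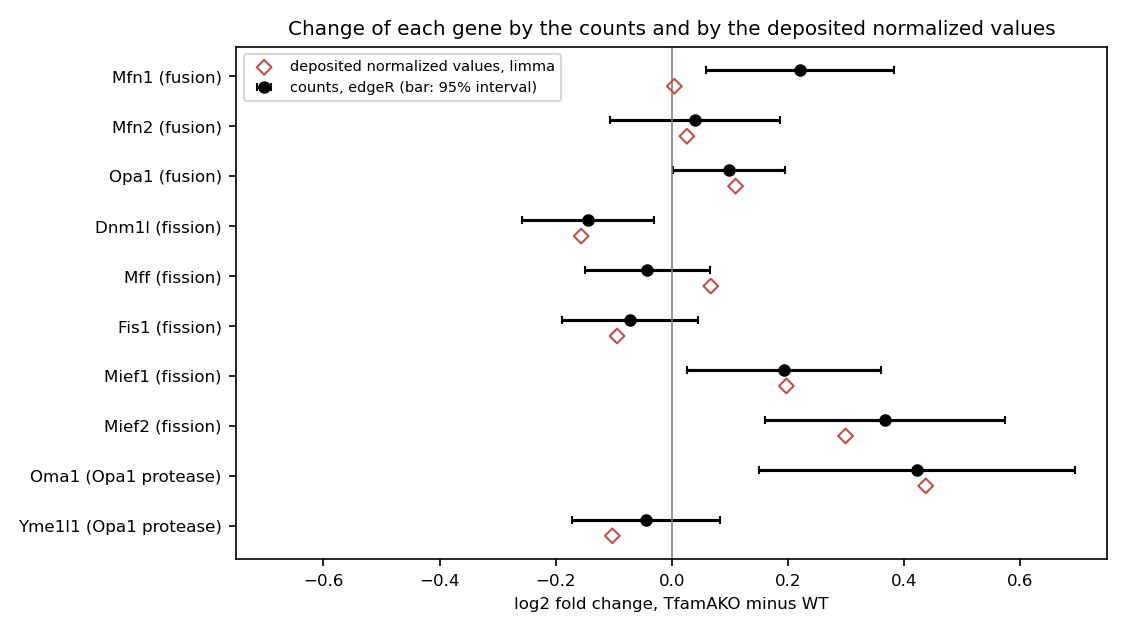
Log2 fold change, TfamAKO minus WT (horizontal axis), of each of the 10 genes from the counts by edgeR (black points, bars are 95% intervals) and from the deposited normalized values by limma (red diamonds). The values from the 2 tables lie close together for most genes and differ most for Mfn1, at 0.22 from the counts and 0.00 from the normalized values.

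Levels of different genes were compared per length, as CPM per 1000 bases of the longest annotated coding transcript. In WT, Fis1 was highest at 94.1 ± 4.36, followed by Mff at 68.5 ± 2.56, Mfn2 at 55.6 ± 3.50, Dnm1l at 52.2 ± 2.07, Opa1 at 24.1 ± 0.582, Yme1l1 at 17.8 ± 0.723, Mfn1 at 15.0 ± 1.44, Mief2 at 7.03 ± 0.583, Mief1 at 5.26 ± 0.363 and Oma1 at 2.61 ± 0.239 (SD, n = 5 each). Mfn2 and Dnm1l were the neighbours in this order that differed by less than the SD of 1 of them. By this measure the receptors Fis1 and Mff stood well above Mief1 and Mief2, and Yme1l1 well above Oma1. In TfamAKO, Mfn1 at 17.4 ± 1.16 and Yme1l1 at 17.2 ± 1.18 could no longer be ordered, and the other genes kept their places. The order depends on the transcript taken for each gene, and Fis1 and Mff have shorter transcripts than most.

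Ratios within a library do not depend on its scaling. The 4 pairs shown were chosen after the values were seen, so they carry no test. The count of Oma1 per count of Yme1l1 was 0.0615, 0.0540, 0.0694, 0.0601 and 0.0548 in WT 1 to 5 and 0.0917, 0.0853, 0.0877, 0.0688 and 0.0810 in TfamAKO 1 to 5. Only TfamAKO 4, at about the value of WT 3, lay inside the WT range, and the mean was 1.38 times that of WT. The count of Dnm1l per count of Opa1 was 1.49, 1.30, 1.31, 1.44 and 1.35 in WT and 1.26, 1.13, 1.20, 1.10 and 1.14 in TfamAKO, so every TfamAKO library lay below every WT library. The mean ratio went from 1.38 ± 0.0833 to 1.17 ± 0.0655 (SD, n = 5 each), 0.845 times the WT value. The separation of this ratio was bound to appear, since Dnm1l and Opa1 each separated the groups in CPM, in opposite directions. It adds no support beyond those. For Mfn1 per Mfn2 (0.285 ± 0.0441 against 0.323 ± 0.0454) and Mief2 per Mief1 (0.660 ± 0.0998 against 0.745 ± 0.132), the groups overlapped.

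**Figure D4:**
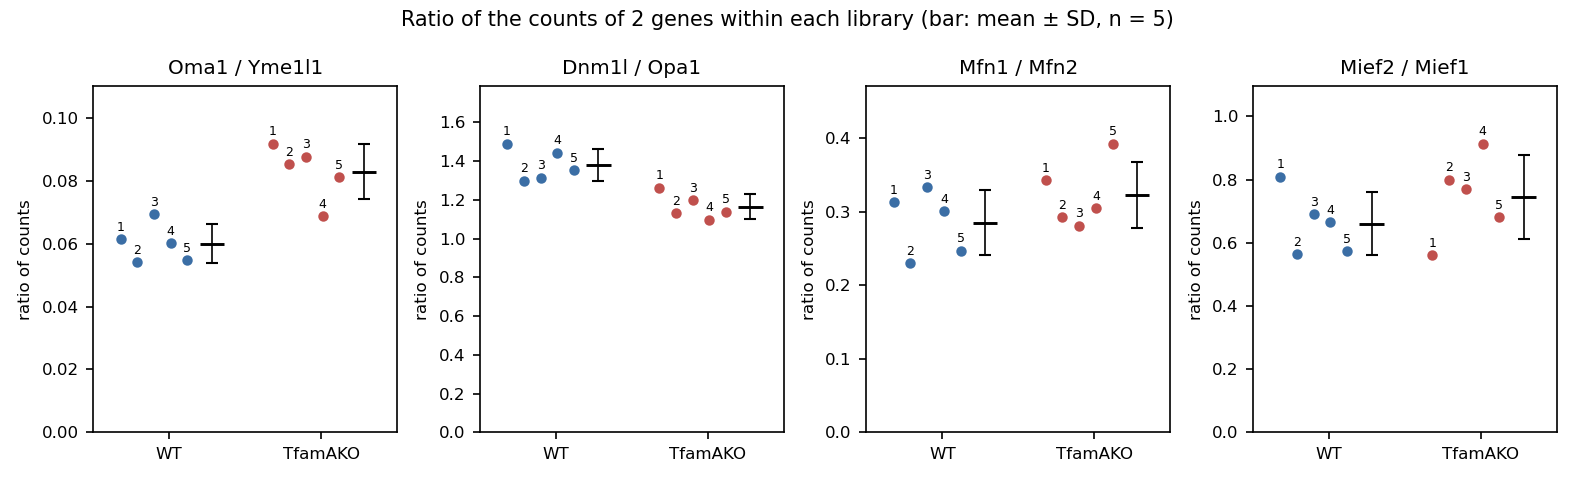
Ratio of the counts of 2 genes within each library (vertical axes from 0, no unit) for 4 pairs, in 5 WT (blue) and 5 TfamAKO (red) libraries, with the mean ± SD beside the points. The groups stand apart for Dnm1l over Opa1, with WT from 1.30 to 1.49 and TfamAKO from 1.10 to 1.26, and overlap for the other pairs. That separation follows from the opposite separations of Dnm1l and Opa1 in CPM.

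The genes whose levels most resembled those of Mief2 and Oma1 were found by the mean absolute difference in log2 CPM over the 10 libraries, after centring each gene on its WT mean, among genes of at least 1 CPM. For Mief2 they were Bri3 at 0.0487, Arl2 at 0.0520 and Uevld at 0.0544. For Oma1 they were Pafah2 at 0.0746, Pax6 at 0.0833 and Rnf215 at 0.0838. Since the measure takes in the difference between the groups, these genes had to rise with their partner. Of the 6, all but Pafah2 passed the test (log2 fold change 0.35 ± 0.13, adjusted p = 0.0518). Without WT 3, 4 and 5 the calls of Bri3, Arl2, Uevld and Pax6 were lost (adjusted p from 0.0603 to 0.0833), as was that of Pax6 on the deposited normalized values (0.27, adjusted p = 0.131), with the offset (0.155) and without WT 5 (0.0623), and that of Uevld without TfamAKO 4 and 5 (0.0658).

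Around these members, 53 further genes of mitochondrial dynamics were examined in 6 lists, of which 51 were tested. Of these, 10 rose, 12 fell and 29 did not pass, with a median log2 fold change of -0.02 against -0.02 for all genes, of which 20.8% rose and 16.6% fell. The numbers rising and falling depended on single libraries: 3 rose and 12 fell without WT 5, 3 and 10 without TfamAKO 2, and 3 and 11 without TfamAKO 3. With upper-quartile scaling 6 rose and 12 fell, the calls of Stoml2, Phb2, Chchd3 and Kif5b being lost. Of 8 genes of inner membrane proteolysis around OPA1, 5 rose and 1 fell, with a median of 0.19, where 20.8% of all genes rose and 37.4% passed either way. This list, like the others, was chosen with earlier results of these data known, so its count carries no test. Chchd10, an intermembrane space protein whose mutation activates OMA1 signalling, rose from 151 ± 11.9 to 314 ± 39.9 CPM (SD, n = 5 each), a log2 fold change of 1.06 ± 0.09 (adjusted p = 6.63e-06). Dele1, the protein that OMA1 cleaves to relay mitochondrial stress to the cytosol, rose from 31.3 ± 2.29 to 36.1 ± 1.15 CPM (0.21 ± 0.06, adjusted p = 0.0254). The other 3 that rose, named after their values were seen, were the protease subunit gene Afg3l1 (0.29 ± 0.06), the rhomboid protease gene Parl (0.29 ± 0.09) and the prohibitin gene Phb2 (0.17 ± 0.06), while Phb, which encodes its partner in the prohibitin ring, fell (-0.37 ± 0.06, adjusted p = 0.00105). Of these 6, Chchd10 and Afg3l1 passed under all 23 alternatives. On the deposited normalized values, Phb (-0.21, adjusted p = 0.0699), Dele1 (0.19, adjusted p = 0.0641) and Phb2 (0.13, adjusted p = 0.148) did not pass. Dele1 was lost without WT 1, 4 or 5 or TfamAKO 2 or 3 (adjusted p 0.0570 to 0.0653), Parl without WT 4 or 5 or TfamAKO 2, 3 or 4 (0.0526 to 0.0635), and Phb2 without any 1 library other than TfamAKO 1 or 5 (0.0542 to 0.109).

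Of 7 further fission genes tested, 2 rose, 2 fell and 3 did not pass. Dnm2, a classical dynamin best known for endocytosis and proposed to act in the last step of fission, rose from 62.8 ± 3.66 to 128.7 ± 18.1 CPM (SD, n = 5 each), a log2 fold change of 1.04 ± 0.09 (adjusted p = 1.07e-05). Gdap1, an outer membrane protein mutated in Charcot-Marie-Tooth neuropathy, fell from 101 ± 2.17 to 67.8 ± 14.0 CPM (-0.58 ± 0.11, adjusted p = 0.00182). TfamAKO 1, at 92.1 CPM, stood nearer to WT than the other 4 TfamAKO libraries, at 56.9 to 66.6 CPM. Named after their values were seen, Mtfp1, an inner membrane fission protein gene, fell (-0.55 ± 0.12) and Mtfr1l rose (0.20 ± 0.06). Mtfr1l was lost without WT 1, 4 or 5 or TfamAKO 2, 3 or 4 (adjusted p 0.0568 to 0.0707). Of 6 further fusion genes, 1 rose, 2 fell and 3 did not pass. Opa3 (-0.37 ± 0.06, adjusted p = 0.000452) and Miga1, a mitoguardin gene (-0.29 ± 0.06, adjusted p = 0.00353), fell. Stoml2, also named after its values were seen, rose (0.19 ± 0.06), a call lost without any 1 library other than WT 4, TfamAKO 1 or TfamAKO 5 (0.0548 to 0.0888).

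In the lists for cristae, regulators and movement, 9 of 30 genes tested passed, against 37.4% of all genes. Of 12 genes of the MICOS complex and cristae, Samm50, an outer membrane assembly factor (-0.22 ± 0.05, adjusted p = 0.00374), and Apoo, a MICOS subunit (-0.37 ± 0.10, adjusted p = 0.0127), fell, and Chchd3, another subunit gene named after its values were seen, rose (0.22 ± 0.08). Chchd3 was at 0.10 on the normalized values (adjusted p = 0.455) and was lost without WT 1, 3, 4 or 5 or TfamAKO 2, 3 or 4 (0.0572 to 0.109). Of 6 tested ubiquitin, SUMO and phosphatase regulators, Mul1, a mitochondrial ubiquitin ligase gene, fell (-0.22 ± 0.07, adjusted p = 0.0210), as did Akap1, an outer membrane anchor of protein kinase A (-0.26 ± 0.08, adjusted p = 0.0259). Without TfamAKO 2 the adjusted p of Mul1 was 0.0564, and on the normalized values it was 0.182, while Akap1 was lost without WT 3 or 4 or TfamAKO 2, 3 or 4 (0.0575 to 0.0676). Of 12 motility genes, the outer membrane GTPase gene Rhot2 (-0.33 ± 0.05, adjusted p = 0.000715) and Armcx3 (-0.32 ± 0.05, adjusted p = 0.000773) fell, as did Armcx1 (-0.47 ± 0.09), and the kinesin gene Kif5b rose (0.30 ± 0.11), these last named after their values were seen. Kif5b was lost with DESeq2 size factors (adjusted p = 0.0540) and without any 1 library other than WT 2 or TfamAKO 1 (0.0659 to 0.116).

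**Figure D5:**
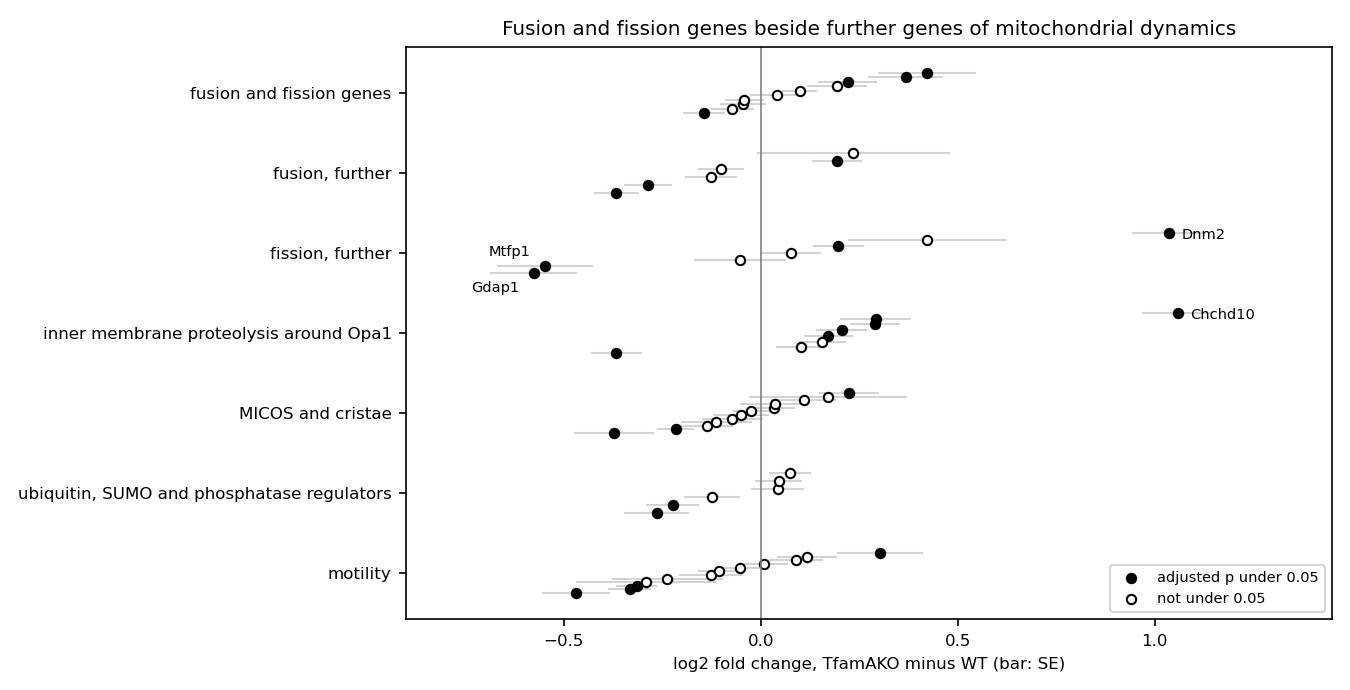
Log2 fold change, TfamAKO minus WT (horizontal axis, bars are SE), of the 10 fusion and fission genes and of the 6 further lists, 1 point per gene, filled where the edgeR adjusted p was under 0.05. The 10 genes lie between -0.14 and 0.42, whereas Dnm2 and Chchd10 lie above 1.

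Libraries that stood apart bear on these counts. Without TfamAKO 4 and 5, Mief2 and Oma1 were the 2 members that passed, with 14 of the 51 further genes, and Stoml2, Mtfr1l, Dele1, Parl, Phb2, Apoo, Akap1 and Kif5b were the 8 lost (adjusted p from 0.0560 to 0.159). Without WT 3, 4 and 5, which leaves 2 WT libraries, 0 members passed by edgeR (3 at an unadjusted p under 0.05), and 7 further genes and 2752 of all genes did. Of the further genes that passed over all libraries, 6 also passed in that fit: Dnm2, Chchd10, Afg3l1, Mtfr1l, Armcx1 and Armcx3. The other 16 kept their direction, with adjusted p from 0.0523 (Rhot2) to 0.488 (Mul1), and Tfam passed (log2 fold change -0.50, adjusted p = 0.0157).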

How the data were processed

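Hippocampal RNA of 5 WT and 5 TfamAKO mice, grouped by the labels, was analysed from 2 tables over the same 20156 gene rows. The authors deposited estimated counts, not normalized. A table of normalized values was deposited too; its making is not described in the labels, and it is handled as a signal. The submitters' processing notes name Salmon, without a version, and DESeq2 1.26.0, while the labels do not name the build, annotation or strand setting. The deposited counts were whole numbers, so rounding changed none.

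Counts were tested with edgeR 4.0.16 in R 4.3.3 (filterByExpr with a minimum count of 10, TMM factors, two-sided quasi-likelihood F test, genotype as the only term, 8 residual degrees of freedom). Adjustment was by Benjamini-Hochberg over the 16180 genes kept, at a threshold of 0.05. Each SE was the size of the log2 fold change over the root of its F value, and CPM uses the effective library size. Reads carry no stated molecular identifiers. Overlaps between genes and transcript lengths are those of GENCODE M21.

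The alternatives tried were upper-quartile scaling, DESeq2 size factors, the DESeq2 1.42.0 Wald test, limma-voom (limma 3.58.1), 2 other filters, a limma fit to log2 values of the deposited signal (pseudocounts 1, 0.5 and 5), a replicate block, leaving out each library, and leaving out TfamAKO 4 and 5 or WT 3, 4 and 5. The ratio of the tables as an offset was added after the data were seen, with cells at a count of 0 given the library median. The steps were tested on simulated data.

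The members, the 6 further lists and the 7 marker lists were chosen with earlier results of these data known. The rule names all members, Tfam, Dele1, up to 2 genes with the smallest p of each further list, and the 3 genes nearest in level to the member with the smallest p and to the one with the largest change. 1 gene of the further lists is not reported here.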

Additional observations from a re-analysis of the deposited data

Results flagged for a closer look

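In each group of 5 libraries of the 39 genes named, the gap between the highest or lowest CPM and its nearest neighbour was divided by the group's range, and values above Dixon's 95% critical value of 0.71 were taken as standing apart. Of 78 groups, 6 held such a library, where chance gives about 1 in 20 groups, and none of them belonged to the 10 fusion and fission genes.

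Tfam was at 20.6 CPM in WT 3, with the other WT libraries at 30.4 to 33.0 CPM (gap 0.787 of the range), and at 19.6 CPM in TfamAKO 3, with the others at 22.7 to 23.6 CPM (0.775). Opa3 was at 57.3 CPM in WT 1, below the other WT libraries (0.726). Stoml2 was at 50.5 CPM in WT 4, above the other WT libraries (0.719). In TfamAKO 1, Gdap1 was at 92.1 CPM (0.724) and Samm50 at 87.7 CPM (0.758), in both cases above the other TfamAKO libraries and below the lowest WT library.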

How the results depend on the processing

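The 4 calls among the 10 members became 2 on the deposited normalized values at each of 3 pseudocounts, 2 without TfamAKO 4 and 5, 0 without WT 3, 4 and 5, and 1 with the ratio of the tables as an offset. They numbered 3 or 4 under the other scalings, filters and count tools, and 1 to 4 when each library was left out. Of the 51 further genes, 14 passed without TfamAKO 4 and 5, 7 without WT 3, 4 and 5, 17 on the normalized values, and 13 to 25 when each library was left out (22 over all libraries; 13 without TfamAKO 2 and 14 without TfamAKO 3). Over all genes, 6048 became 2752 without WT 3, 4 and 5, which leaves fewer samples, with 72.7% of the calls higher against 55.7%. When each library was left out, 4828 to 7094 genes passed.

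The log2 fold change of Mff turned to 0.067 on the normalized values at each pseudocount and 0.062 with the offset, that of Mfn1 to -0.0014 with the offset, and that of Yme1l1 to 0.0090 without WT 3, 4 and 5. The cause was not tested, and of these genes only Mfn1 had passed. Leaving out single libraries kept the direction of all 10 members. Over the 23 alternatives Oma1 passed in 20, Mief2 in 18, Mfn1 in 11 and Dnm1l in 9.

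Same-numbered WT and TfamAKO libraries did not deviate together (correlations -0.142 to 0.0691, and 0 of 5 WT libraries were closest to their own number). The values thus gave no sign that the numbers pair the mice. A pairing that leaves no shared deviation would not be seen by this check, and the labels give no litter or batch. With the replicate block 2 members passed (Mief2 and Oma1), Mfn1 and Dnm1l not (adjusted p = 0.0717 and 0.0719), and 22 further genes and 5679 genes in all did; Pax6 (0.0583) and Phb2 (0.0782) did not.

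Oma1, with 80 to 171 counts per library, is the member whose precision the depth limits most.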
